A study of Mus musculus with 11 samples.

Results

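Pre-mRNA splicing factors of 4 families were followed across mouse medulloblastoma models. The families are the SR proteins, the hnRNP proteins, the SF3A and SF3B subunits and the core snRNP proteins. Members were all genes of the count table whose symbol begins with Srsf, Hnrnp, Sf3a, Sf3b or Snrp followed by the letters or digits of a family member. The rule took 49 of 38406 genes: 11 SR, 18 hnRNP, 8 SF3 and 12 snRNP genes. It used symbols and no measured value, but it was chosen with earlier results of these data known. Genes listed under older symbols (Hnrpdl, Hnrpll) or named Snrnp fall outside it.

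Introns are removed by the spliceosome, which is built on each transcript from small nuclear ribonucleoproteins (snRNPs). The Sm proteins, encoded by Snrpb, Snrpn, Snrpd1, Snrpd2, Snrpd3, Snrpe, Snrpf and Snrpg, form the ring that binds the spliceosomal RNAs, and Snrpa, Snrpc, Snrpa1 and Snrpb2 encode proteins specific to the U1 or U2 particle. SF3A and SF3B are the parts of the U2 particle that hold it on the branch point. SR proteins bind exons and mostly promote their use, whereas hnRNP proteins coat the transcript and often repress splice sites. MYC is known from other systems to drive genes of the splicing machinery, and SF3B1 is mutated in several human cancers.

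The libraries came from fresh-frozen cerebellar tumours of CD1 mice, and every model carried MYC as an oncogene. In the N1ICD tumours (n = 3), Math1-positive cells, which are granule neuron progenitors, were given N1ICD, the free intracellular part of Notch1, along with MYC and Gfi1. In the S100b-cell tumours (n = 3), the pair of MYC and Gfi1 was targeted to cells that express S100b. The MYC/Otx2 tumours (n = 3) and the MYC/Gfi1 tumours (n = 2) carried their oncogene pairs with expression labelled constitutive, and the series uses both as published models of Group 3 medulloblastoma. Gfi1 encodes a transcriptional repressor and Otx2 a homeobox factor. The labels give no age, promoter or number of animals, and each n counts libraries. The question addressed is how the N1ICD and S100b-cell tumours compare with the constitutive models.

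Counts of 3′ end tags (QuantSeq) totalled 2584768 to 3376389 in the N1ICD libraries, 12767656 to 15186763 in the S100b-cell libraries, 6967686 to 8334356 in the MYC/Otx2 libraries and 7533317 and 6526486 in the MYC/Gfi1 libraries. The 49 genes took 0.693% to 1.88% of a library's counts. All 49 passed the low-count filter, with 15228 genes tested in all. Mitochondrially encoded genes took 23.2% to 27.6% of counts in the N1ICD libraries, 14.7% to 18.5% in the S100b-cell libraries, 5.18% to 5.74% in the MYC/Otx2 libraries and 6.00% and 5.96% in the MYC/Gfi1 libraries. The library names follow 1 style for both constitutive models and a style each for the N1ICD and S100b-cell models, so a library set and a model cannot be told apart except between the constitutive models. MYC/Gfi1 library 2 stood apart, with markers of mature granule neurons summing to 3576 CPM (counts scaled to the usual common library total). The other 10 libraries held 5.58 to 312 CPM of these markers. Rank correlations (Spearman) between libraries were 0.808 to 0.907 within N1ICD, 0.912 to 0.946 within S100b-cell and 0.950 to 0.952 within MYC/Otx2. The MYC/Gfi1 pair gave 0.816. Otx2 had 0 to 13.7 CPM in the N1ICD libraries, 0 to 2.77 CPM in the S100b-cell libraries, 13.7 to 97.0 CPM in the MYC/Otx2 libraries and 0.436 to 2.80 CPM in the MYC/Gfi1 libraries. Gfi1 was at 0.697 to 4.87 CPM in the N1ICD, 2.07 to 13.9 in the S100b-cell, 0 to 0.283 in the MYC/Otx2 and 3.05 to 3.61 CPM in the MYC/Gfi1 libraries. Myc had 0.429 to 2.43 CPM in the N1ICD, 2.01 to 4.21 in the S100b-cell, 31.5 to 128 in the MYC/Otx2 and 11.04 to 27.5 CPM in the MYC/Gfi1 libraries, so the model with the highest levels of many splicing factor genes also had the highest Myc counts, and the part of Myc in the results was not tested. The labels do not say whether a 3′ tag of these genes can come from a transgene, so these levels do not check the labels. Atoh1, which encodes Math1, was at 0 in every N1ICD and MYC/Otx2 library, and S100b had 11.1 to 30.4 CPM in the N1ICD, 1.23 to 63.8 in the S100b-cell, 4.62 to 73.6 in the MYC/Otx2 and 25.6 to 557 in the MYC/Gfi1 libraries. The labels do not say that the libraries came from separate animals, so p-values measure the spread between these libraries, pooled over the 4 models.

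Promoters of 4 members with a call are printed because both MYC and OTX2 are DNA-binding factors with known preferred sites. Each window runs from 250 bases before to 50 bases after the RefSeq transcript start on GRCm38.p6, 5′ to 3′ on the gene's strand. Hnrnpm lies at chr17:33685409-33685708 on the minus strand, Hnrnpd at chr5:99978889-99979188 on the minus strand, Srsf9 at chr5:115326927-115327226 on the plus strand and Sf3a1 at chr11:4160104-4160403 on the plus strand. Capitals mark the E-box CACGTG, which MYC is known to bind and which reads the same on both strands.
Hnrnpm: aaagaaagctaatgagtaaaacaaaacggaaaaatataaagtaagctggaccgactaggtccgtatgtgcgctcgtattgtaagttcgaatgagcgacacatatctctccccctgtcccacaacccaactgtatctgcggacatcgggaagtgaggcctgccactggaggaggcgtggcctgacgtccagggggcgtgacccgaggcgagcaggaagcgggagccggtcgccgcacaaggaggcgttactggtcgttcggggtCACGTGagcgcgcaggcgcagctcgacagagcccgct
Hnrnpd: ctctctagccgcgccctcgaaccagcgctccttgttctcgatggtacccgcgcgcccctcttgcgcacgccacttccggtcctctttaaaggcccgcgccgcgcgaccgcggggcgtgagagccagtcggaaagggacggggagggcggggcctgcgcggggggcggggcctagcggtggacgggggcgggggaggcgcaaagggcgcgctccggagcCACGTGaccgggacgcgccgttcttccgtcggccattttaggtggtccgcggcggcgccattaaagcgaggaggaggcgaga
Srsf9: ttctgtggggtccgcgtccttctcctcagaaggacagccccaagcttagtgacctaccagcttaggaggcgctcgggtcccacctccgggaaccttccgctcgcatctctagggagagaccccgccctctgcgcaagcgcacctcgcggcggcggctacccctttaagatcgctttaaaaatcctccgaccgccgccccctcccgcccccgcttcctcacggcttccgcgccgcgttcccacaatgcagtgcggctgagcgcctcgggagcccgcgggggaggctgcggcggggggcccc
Sf3a1: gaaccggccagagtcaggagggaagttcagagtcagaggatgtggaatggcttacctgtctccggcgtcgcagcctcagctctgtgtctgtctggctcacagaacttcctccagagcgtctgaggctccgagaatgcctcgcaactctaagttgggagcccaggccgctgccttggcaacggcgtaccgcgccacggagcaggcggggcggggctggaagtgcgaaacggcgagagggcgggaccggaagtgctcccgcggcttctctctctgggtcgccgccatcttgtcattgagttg
The E-box of Hnrnpm began 14 bases after the start and that of Hnrnpd 32 bases before it (position -32). The Srsf9 and Sf3a1 windows held neither the E-box nor TAATCC, the core recognised by OTX and CRX factors, which was searched on both strands as TAATCC and GGATTA and can share 1 base with an E-box. Windows were found for 44 of the 49 genes, and 6 of the 44 (13.6%) held an E-box: Hnrnpa3, Hnrnpd, Hnrnpf, Hnrnph2, Hnrnpm and Snrpa. The share was 11.5% of tested genes with a window and 8.09% of all genes with one. TAATCC was in 4 of the 44 (9.09%), against 6.88% of tested genes and 8.14% of all genes. Of 9 genes with a window that fell against MYC/Otx2 in both the N1ICD and S100b-cell tumours, 1 (11.1%), Hnrnpm, held an E-box. None of these 9 held TAATCC. Among the 35 other members with a window, 5 (14.3%) held an E-box and 4 (11.4%) held TAATCC. A match describes the letters in the window only.

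Across the 4 models, most splicing factor genes were highest in the MYC/Otx2 tumours. In bulk tumours, fewer cells of a type and less RNA per cell cannot be told apart. The mean was highest there for 32 of the 49 genes, where 24.0% of all tested genes had their highest mean in that model. In 22 of the 49 genes every MYC/Otx2 library lay above every library of the other 3 models, against 8.45% of all tested genes. The 22 were 5 of the 11 SR, 7 of the 18 hnRNP, 4 of the 8 SF3 and 6 of the 12 snRNP genes. The SR gene Srsf4 was the opposite case, with every MYC/Otx2 library below all others at very low counts. Summed over the 49 genes, the libraries held 7971, 10348 and 11989 CPM in the N1ICD libraries, 12437, 11134 and 10474 in the S100b-cell libraries, 17686, 16997 and 17953 in the MYC/Otx2 libraries and 13042 and 7936 in the MYC/Gfi1 libraries. All MYC/Otx2 libraries lay above the rest, the N1ICD and S100b-cell libraries overlapped, and the MYC/Gfi1 libraries spanned both. A gene-wise test of any difference among the 4 models (edgeR) called 18 of the 49 genes, or 36.7%, against 28.4% of all genes tested. It called 6 of 11 SR, 5 of 18 hnRNP, 2 of 8 SF3 and 5 of 12 snRNP genes. Left out in turn, single libraries moved the 18 to 8 without MYC/Otx2 library 3, 9 without MYC/Otx2 library 1 or 2, 11 without S100b-cell library 2 and 29 without MYC/Gfi1 library 1.

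Markers of dividing cells were also highest in sum in the MYC/Otx2 libraries. Over 8 proliferation markers (Mki67, Top2a, Ccnb1, Cdk1, Ccna2, Bub1, Birc5, Aurkb) the summed level was 1403 to 2139 CPM in the N1ICD libraries, 1602 to 2574 CPM in the S100b-cell libraries, 3163 to 4032 CPM in the MYC/Otx2 libraries and 2368 and 1560.3 CPM in the MYC/Gfi1 libraries, and none was at 0 throughout a model. Against MYC/Otx2, 2 of the 8 fell in the N1ICD tumours (Birc5, Ccnb1) and 1 in the S100b-cell tumours (Birc5). Mki67 went the other way, with 239, 277 and 162 CPM in the N1ICD libraries, 167, 102 and 97.7 in the S100b-cell libraries, 51.0, 57.4 and 50.6 in the MYC/Otx2 libraries and 57.9 and 26.6 in the MYC/Gfi1 libraries. It rose over MYC/Otx2 by 2.09 ± 0.34 (log2, SE) in the N1ICD and by 1.20 ± 0.33 in the S100b-cell tumours (edgeR, adjusted p = 0.00372 and 0.0347). The part of proliferation in the splicing factor levels was not tested.

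**Figure D1:**
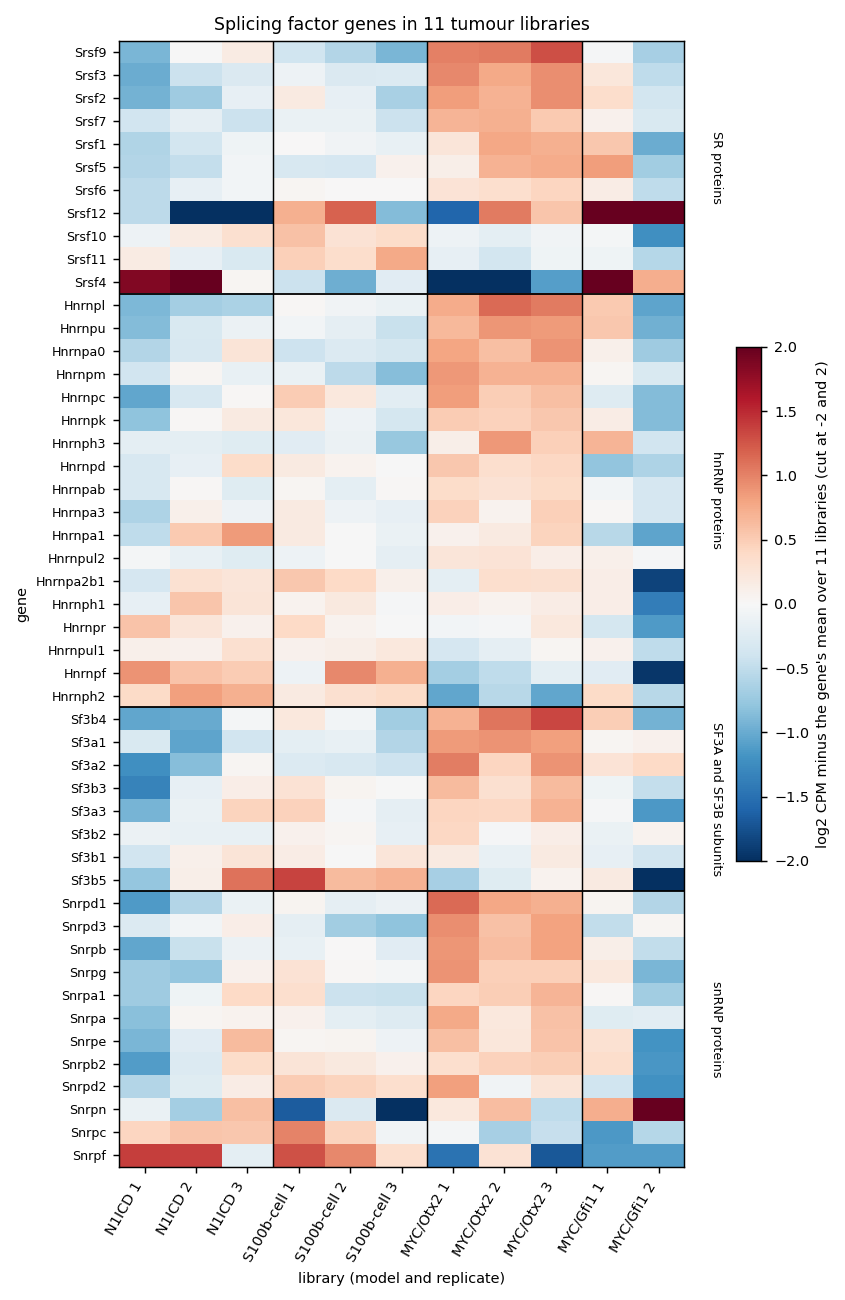
Level of each of the 49 splicing factor genes (vertical axis, grouped by family) in each of the 11 libraries (horizontal axis), coloured by log2 CPM minus the gene's mean over all libraries, red for above and blue for below. The 3 MYC/Otx2 columns are mostly red, and MYC/Gfi1 library 2 is mostly blue, with Snrpn, Snrpd3, Srsf4, Srsf12, Sf3a1, Sf3a2 and Sf3b2 as the exceptions. Colours are cut at -2 and 2.

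In the N1ICD tumours, set against MYC/Otx2, 16 of the 49 genes fell and 2 rose. The called share was 21.8% of all genes, 9.76% lower and 12% higher, so falls took a larger share of the splicing factor genes than of all genes and rises a smaller one. By family, 4 of 11 SR, 5 of 18 hnRNP, 3 of 8 SF3 and 4 of 12 snRNP genes fell, and the rises were Srsf4 and Hnrnph2. The median log2 fold change was -0.62 over the 49 genes and 0.14 over all genes tested, and the fitted value was below 0 in 37 of the 49. Every N1ICD library lay below every MYC/Otx2 library in 27 of the 49, against 20.8% of all genes. The count of 18 depended on single libraries: it was 10 without N1ICD library 1, 9 without N1ICD library 2, 9 without MYC/Otx2 library 1, 10 without MYC/Otx2 library 2 and 9 without MYC/Otx2 library 3. With mitochondrially encoded genes taken out of the totals it was 16. Vascular wall markers were far higher in the N1ICD libraries, where 7 of 8 were called and their sum was 259 to 6542 CPM, against 65.7 to 129 CPM in the MYC/Otx2 libraries with Myh11 at 0, and their part in the result was not tested.

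In the S100b-cell tumours, set against the same MYC/Otx2 libraries, 11 of the 49 genes fell and 1 rose, Srsf11. Over all genes 17.9% were called, 7.89% lower and 10% higher. With upper-quartile scaling the split was 7 lower and 2 higher. By family, 4 of 11 SR, 2 of 18 hnRNP, 2 of 8 SF3 and 3 of 12 snRNP genes fell. The median log2 fold change was -0.43 over the 49 genes and 0.17 over all genes, and 35 of the 49 were below 0. Libraries did not overlap, with the S100b-cell side lower, in 28 of the 49 genes, against 21.8% of all genes. The 12 calls became 7 without S100b-cell library 1, 5 without S100b-cell library 2, 4 without S100b-cell library 3, 6 without MYC/Otx2 library 1, 7 without MYC/Otx2 library 2 and 6 without MYC/Otx2 library 3. The genes that fell were Srsf2, Srsf3, Srsf7, Srsf9, Hnrnpa0, Hnrnpm, Sf3a1, Sf3a2, Snrpb, Snrpd1 and Snrpd3. The N1ICD and S100b-cell comparisons share the MYC/Otx2 libraries, so they are not independent. Microglia markers (7 genes) summed to 468 to 784 CPM in the S100b-cell libraries, against 101 to 366 CPM in the MYC/Otx2 libraries, with C1qa and C1qb called higher and none at 0 throughout either model. Tagln and Pecam1 of 8 vascular wall, Mbp of 5 tested oligodendrocyte and Igha of 2 tested plasma cell markers were also called higher. No neuron or granule neuron marker was called. The part of these markers in the result was not tested.

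Between the constitutive models, 2 of the 49 genes, Srsf9 and Hnrnpd, rose in the MYC/Otx2 tumours over MYC/Gfi1 and none fell, where 5.46% of all genes were called, 2.43% higher and 3.03% lower. Fold changes leaned the same way: 45 of the 49 were above 0, with a median of 0.74 against -0.14 over all genes. Over the alternatives this median was 0.41 to 1.20. Relative to each gene's mean over all libraries, the median log2 level of the 49 was 0.09 in MYC/Gfi1 library 1 and -0.59 in library 2. In the MYC/Otx2 libraries it was 0.41 to 0.49. In 30 of the 49 genes both MYC/Gfi1 libraries lay below all MYC/Otx2 libraries, against 20.1% of all genes. The reverse held in 3 of the 49, against 23.6% of all genes. The count rested on the pair of MYC/Gfi1 libraries. It was 20 without MYC/Gfi1 library 1, 0 without MYC/Gfi1 library 2, 8 without N1ICD library 1, and 0 without S100b-cell library 2, S100b-cell library 3 or any 1 of the MYC/Otx2 libraries. It was 15 with DESeq2 and 11 with limma-voom, and edgeR gave 22 of the 49 an unadjusted p under 0.05. Oligodendrocyte markers (6 genes) summed to 30.6 to 86.8 CPM in the MYC/Otx2 libraries, against 256 and 784 CPM in the MYC/Gfi1 libraries, with Mbp and Cnp called lower and none at 0 throughout either model. Plasma cell markers (Igha, Igkc and Ighm) summed to 0.116 to 0.424 CPM in the MYC/Otx2 libraries, with Ighm at 0, against 3390.4 and 609 CPM in the MYC/Gfi1 libraries, and Igha and Igkc were called lower. Neuron markers (7 genes) summed to 167 to 473 CPM in the MYC/Otx2 libraries, against 583 and 2760.1 CPM in the MYC/Gfi1 libraries. Camk2b was called lower. Granule neuron markers (8 genes) summed to 22.2 to 312 CPM, against 128 and 3576 CPM in the widely split MYC/Gfi1 pair, and none was called. The median log2 fold changes were -3.16 over the neuron and -4.06 over the granule neuron markers. The part of these markers in the result was not tested.

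Against MYC/Gfi1, few splicing factor genes were called in the N1ICD or S100b-cell tumours. In each of these comparisons edgeR gave 10 of the 49 an unadjusted p under 0.05. In the N1ICD tumours 2 of the 49 rose, Hnrnpr and Snrpc, and none fell (11.5% of all genes called, 5.47% higher and 6.05% lower), with a median log2 fold change of 0.02 against -0.01 over all genes. In the S100b-cell tumours 1 of the 49 fell, Snrpn, and none rose (4.35% of all genes, 2.34% higher and 2.01% lower), with medians of 0.15 and 0.01. These counts were 7 and 10 without MYC/Gfi1 library 1 and 1 and 0 without MYC/Gfi1 library 2. The N1ICD count of 2 was 0 without N1ICD library 2, S100b-cell library 2, MYC/Otx2 library 2 or MYC/Otx2 library 3, and 1 without N1ICD library 3, S100b-cell library 1 or S100b-cell library 3. The S100b-cell count of 1 was 0 without any 1 of the S100b-cell or MYC/Otx2 libraries. Between the N1ICD and the S100b-cell tumours 0 of the 49 genes passed the test, where 1.21% of all genes did, 0.808% higher and 0.407% lower. edgeR gave 2 an unadjusted p under 0.05, and DESeq2 and limma-voom also called 0.

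**Figure D2:**
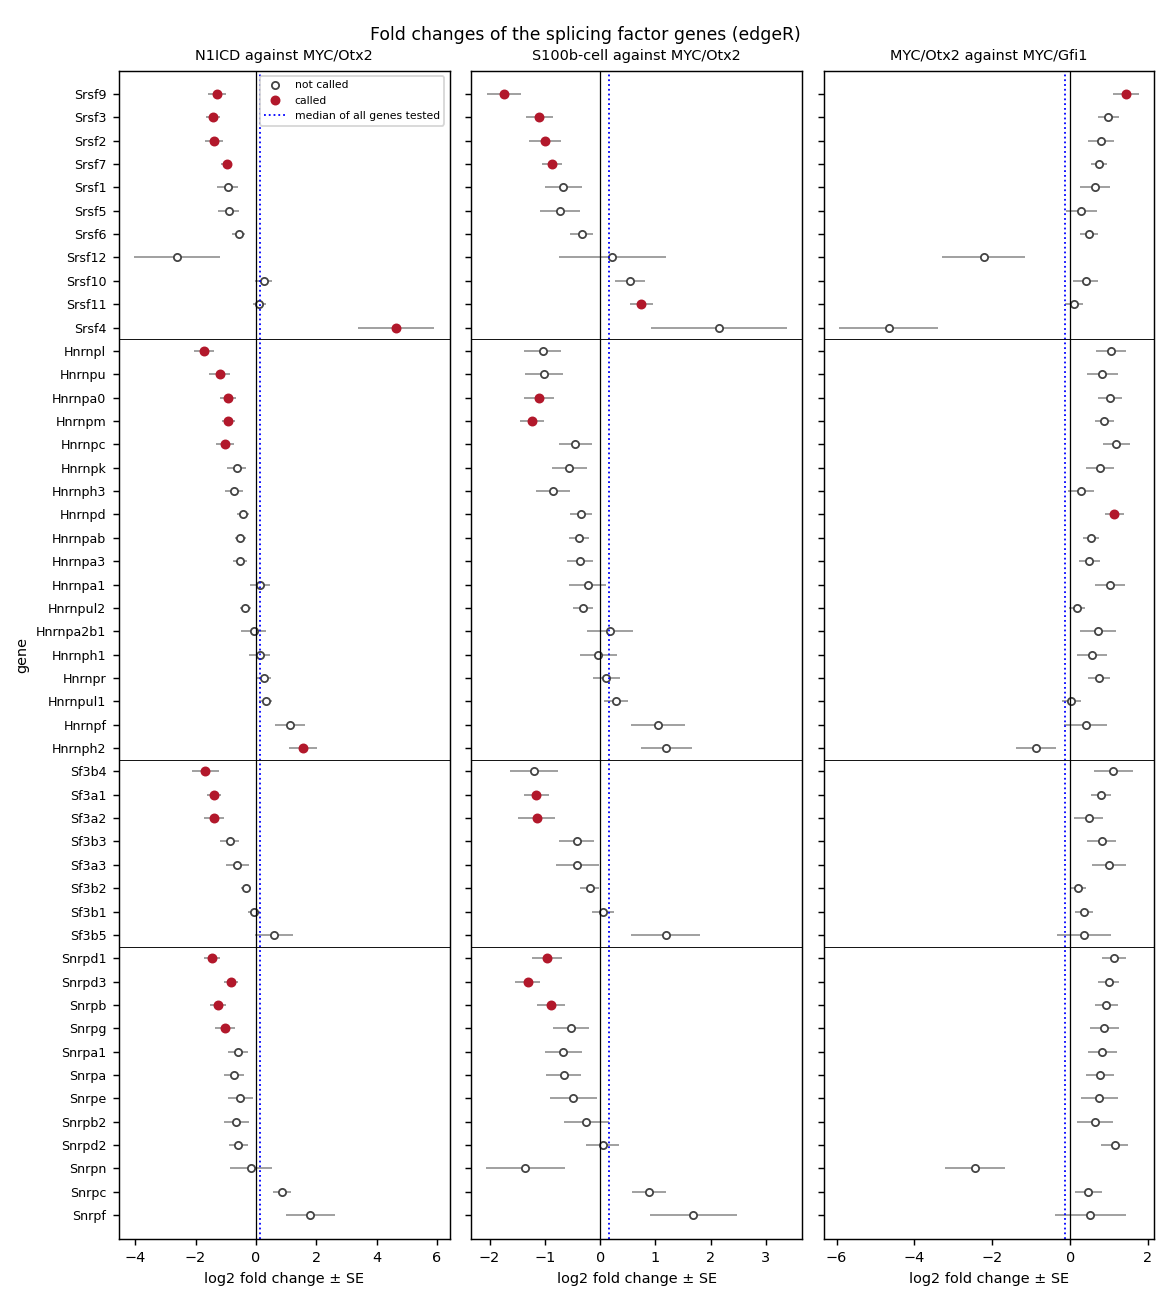
Log2 fold change with its SE (horizontal axis) of each of the 49 genes (vertical axis, by family) in 3 comparisons, from edgeR; filled points are called at an adjusted p under 0.05 and the dotted line is the median of all genes tested. In the comparisons with MYC/Otx2 most points lie left of the line, with 16 and 11 called there, and for MYC/Otx2 against MYC/Gfi1 most lie right of it. The scales differ between panels, and Srsf4, Srsf12 and Snrpf rest on few counts.

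Among the SR proteins, Srsf2, Srsf3, Srsf7 and Srsf9 fell in the N1ICD and in the S100b-cell tumours against the shared MYC/Otx2 libraries. Srsf3, a small SR protein that also acts in mRNA export, had 270.1, 399 and 438 CPM in the N1ICD libraries, 501, 440.0 and 447 in the S100b-cell libraries, 1046, 913 and 1019 in the MYC/Otx2 libraries and 629 and 379 in the MYC/Gfi1 libraries. All 3 MYC/Otx2 libraries were above the other 8, with the S100b-cell libraries just above the N1ICD libraries. Its level fell by 1.43 ± 0.24 (log2, SE) in the N1ICD tumours (edgeR, adjusted p = 0.00428) and by 1.10 ± 0.24 in the S100b-cell tumours (adjusted p = 0.0144) relative to MYC/Otx2. Srsf7, which resembles Srsf3 and adds a zinc knuckle, had 343, 392 and 331 CPM in the N1ICD libraries, 407, 408 and 330.1 in the S100b-cell libraries, 711, 733 and 641 in the MYC/Otx2 libraries and 471 and 359 in the MYC/Gfi1 libraries. Again the MYC/Otx2 libraries were above the other 8, and the N1ICD and S100b-cell libraries overlapped. It fell by 0.97 ± 0.18 (log2, SE; adjusted p = 0.00651) in the N1ICD and by 0.86 ± 0.18 (adjusted p = 0.0122) in the S100b-cell tumours. Srsf9, a short SR protein with a brief RS domain, had 84.0, 158 and 179 CPM in the N1ICD libraries, 121, 106 and 84.3 in the S100b-cell libraries, 321, 328 and 391 in the MYC/Otx2 libraries and 156 and 101 in the MYC/Gfi1 libraries. Every MYC/Otx2 library lay above every other library, and the other 3 models overlapped. It was the SR gene with the largest fall in the S100b-cell tumours, by 1.74 ± 0.30 (log2, SE; adjusted p = 0.00601), and it fell by 1.30 ± 0.30 in the N1ICD tumours (adjusted p = 0.0148). It was also the SR gene that rose in MYC/Otx2 over MYC/Gfi1, by 1.43 ± 0.35 (adjusted p = 0.0433). Srsf2, also called SC35 and a mark of nuclear speckles, had 37.7, 44.6 and 64.9 CPM in the N1ICD libraries, 82.2, 64.7 and 46.3 in the S100b-cell libraries, 130.1, 117 and 139 in the MYC/Otx2 libraries and 93.0 and 56.6 in the MYC/Gfi1 libraries. MYC/Otx2 libraries were again the highest, with 1 MYC/Gfi1 library nearest to them. It fell by 1.39 ± 0.30 (log2, SE; adjusted p = 0.0117) in the N1ICD and by 1.00 ± 0.30 (adjusted p = 0.042) in the S100b-cell tumours. In the N1ICD tumours the calls of Srsf2, Srsf3 and Srsf7 held in all 19 alternatives. The calls of Srsf3 and Srsf7 in the S100b-cell tumours were lost without any 1 of S100b-cell libraries 2 and 3 (adjusted p = 0.0547 to 0.0557) and without S100b-cell library 3 (adjusted p = 0.0543). That of Srsf2 there was lost without any 1 of N1ICD library 2, S100b-cell libraries 2 and 3 and MYC/Otx2 libraries 1, 2 and 3 (adjusted p = 0.0521 to 0.142). The call of Srsf9 was lost without MYC/Otx2 library 3 (adjusted p = 0.0514) for the N1ICD tumours, and for MYC/Otx2 against MYC/Gfi1 it was lost without any 1 of S100b-cell libraries 1, 2 and 3, MYC/Otx2 libraries 1, 2 and 3 and MYC/Gfi1 library 2 (adjusted p = 0.0526 to 0.178).

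The other SR genes were not called lower against MYC/Otx2. Srsf11, known for promoting short neuronal exons, had 417, 332 and 303 CPM in the N1ICD libraries, 517, 479 and 629.8 in the S100b-cell libraries, 334, 289 and 350.5 in the MYC/Otx2 libraries and 352 and 253 in the MYC/Gfi1 libraries. It was highest in all 3 S100b-cell libraries, where it rose by 0.74 ± 0.21 (log2, SE) over MYC/Otx2 (edgeR, adjusted p = 0.0364), while the N1ICD fold change was 0.11 ± 0.21 (adjusted p = 0.727). Its call was lost without any 1 of S100b-cell libraries 1, 2 and 3 and MYC/Otx2 libraries 1, 2 and 3 (adjusted p = 0.0636 to 0.126). Srsf10, a repressor of splicing when dephosphorylated, averaged 229.9 CPM in the N1ICD, 280.4 in the S100b-cell, 192 in the MYC/Otx2 and 146 in the MYC/Gfi1 tumours. Its values passed no test (lowest adjusted p = 0.109, S100b-cell against MYC/Gfi1). Srsf1, the founding SR protein and a known oncogene product, had 146, 171 and 207 CPM in the N1ICD libraries, 221, 210.1 and 200.02 in the S100b-cell libraries, 263, 378 and 363 in the MYC/Otx2 libraries and 322 and 111 in the MYC/Gfi1 libraries. All N1ICD and S100b-cell libraries were below the MYC/Otx2 libraries, and the MYC/Gfi1 libraries lay on both sides. Its log2 fold changes against MYC/Otx2 were -0.94 ± 0.34 in the N1ICD and -0.67 ± 0.34 in the S100b-cell tumours (SE; adjusted p = 0.0737 and 0.189). Srsf5 had 337, 365 and 487 CPM in the N1ICD libraries, 405, 403 and 539 in the S100b-cell libraries, 549, 827 and 850.1 in the MYC/Otx2 libraries and 908 and 315 in the MYC/Gfi1 libraries. As with Srsf1, the N1ICD and S100b-cell libraries all lay below the MYC/Otx2 libraries, MYC/Gfi1 library 1 was among the highest and library 2 the lowest, and neither comparison with MYC/Otx2 passed the test (adjusted p = 0.0948 for the N1ICD and 0.179 for the S100b-cell tumours). Srsf6 averaged 202 CPM in the N1ICD, 240.2 in the S100b-cell, 302 in the MYC/Otx2 and 216 in the MYC/Gfi1 tumours and passed no test (lowest adjusted p = 0.0719, N1ICD against MYC/Otx2), although every MYC/Otx2 library lay above every other library. Srsf4 and Srsf12 had few counts. Srsf4 had 11 counts in all N1ICD libraries together, 10 in the S100b-cell, 1 in the MYC/Otx2 and 23 in the MYC/Gfi1 libraries. The N1ICD level in CPM was 34.1 times that of MYC/Otx2, with an exact 95% interval of 4.96 to 1468 that covers counting error only. The rise was called (edgeR, adjusted p = 0.0274) and lost without any 1 of N1ICD libraries 1 and 2 and MYC/Otx2 libraries 1 and 2 (adjusted p = 0.0541 to 0.0796); a gene on the other strand, Gm12992, overlaps its 3′ end. Srsf12, a relative of Srsf10, had 1 count in the N1ICD libraries together, 46 in the S100b-cell, 22 in the MYC/Otx2 and 67 in the MYC/Gfi1 libraries, with no call; its lowest adjusted p was 0.0531, for the N1ICD tumours against MYC/Gfi1.

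Among the hnRNP genes, Hnrnpa0 and Hnrnpm fell in the N1ICD and in the S100b-cell tumours relative to MYC/Otx2, and Hnrnpc, Hnrnpl and Hnrnpu were called in the N1ICD tumours. Hnrnpm, a regulator of alternative exons, had 482, 641 and 562 CPM in the N1ICD libraries, 569.6, 438 and 346 in the S100b-cell libraries, 1146, 1018 and 1012 in the MYC/Otx2 libraries and 644 and 507 in the MYC/Gfi1 libraries. Each MYC/Otx2 library lay above every other library, and the other 3 models overlapped. It fell by 0.91 ± 0.22 (log2, SE; edgeR, adjusted p = 0.0175) in the N1ICD and by 1.23 ± 0.22 (adjusted p = 0.00658) in the S100b-cell tumours, and the N1ICD call was lost without MYC/Otx2 library 1 (adjusted p = 0.0602). Hnrnpa0, a close relative of Hnrnpa1, had 409, 494 and 733 CPM in the N1ICD libraries, 462, 510.4 and 483 in the S100b-cell libraries, 1058, 933 and 1139.7 in the MYC/Otx2 libraries and 657 and 375 in the MYC/Gfi1 libraries. The MYC/Otx2 libraries were the highest, followed by N1ICD library 3. It fell by 0.94 ± 0.26 (log2, SE; adjusted p = 0.032) in the N1ICD and by 1.10 ± 0.27 (adjusted p = 0.0207) in the S100b-cell tumours. The N1ICD call was lost without any 1 of N1ICD libraries 1 and 2 and MYC/Otx2 libraries 1, 2 and 3 (adjusted p = 0.0591 to 0.0953) and the S100b-cell call without any 1 of S100b-cell libraries 1, 2 and 3 and MYC/Otx2 libraries 1 and 3 (adjusted p = 0.0578 to 0.0682). Hnrnpl, which binds CA-rich RNA, had 103, 119 and 123 CPM in the N1ICD libraries, 194, 182 and 174 in the S100b-cell libraries, 319.7, 419.6 and 393 in the MYC/Otx2 libraries and 275 and 91.5 in the MYC/Gfi1 libraries. The N1ICD libraries lay below the S100b-cell libraries and these below the MYC/Otx2 libraries, while the MYC/Gfi1 libraries lay far apart. It fell by 1.71 ± 0.34 (log2, SE) in the N1ICD tumours against MYC/Otx2, the largest fall among the called hnRNP genes (adjusted p = 0.00791), and this call held in all 19 alternatives. In the S100b-cell tumours the log2 fold change was -1.04 ± 0.33 (adjusted p = 0.0533), and between the N1ICD and S100b-cell tumours it was -0.67 ± 0.33 (adjusted p = 0.307).

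Hnrnpc, which binds uridine tracts and masks cryptic exons, had 218, 359 and 455 CPM in the N1ICD libraries, 639, 520.1 and 386 in the S100b-cell libraries, 796, 627 and 682 in the MYC/Otx2 libraries and 373 and 246 in the MYC/Gfi1 libraries. The S100b-cell libraries reached the MYC/Otx2 range and the N1ICD libraries did not. It fell by 1.03 ± 0.30 (log2, SE) in the N1ICD tumours against MYC/Otx2 (edgeR, adjusted p = 0.0364), and the S100b-cell fold change was -0.45 ± 0.30 (adjusted p = 0.315). The N1ICD call was lost without any 1 of N1ICD libraries 1 and 2, S100b-cell library 2 and MYC/Otx2 libraries 1, 2 and 3 (adjusted p = 0.0544 to 0.106). Between the N1ICD and S100b-cell tumours the log2 fold change of Hnrnpc was -0.58 ± 0.30 (adjusted p = 0.33). Hnrnpu, also known as scaffold attachment factor A, had 665, 990.1 and 1119.9 CPM in the N1ICD libraries, 1172, 1072 and 897 in the S100b-cell libraries, 1919, 2255 and 2203 in the MYC/Otx2 libraries and 1778 and 623 in the MYC/Gfi1 libraries. MYC/Gfi1 library 1 was close to the MYC/Otx2 libraries and MYC/Gfi1 library 2 was the lowest of all. It fell by 1.20 ± 0.35 (log2, SE; adjusted p = 0.0346) in the N1ICD tumours, a call lost without any 1 of N1ICD libraries 1, 2 and 3, S100b-cell library 2 and MYC/Otx2 libraries 1, 2 and 3 (adjusted p = 0.0501 to 0.0918). The value for the S100b-cell tumours was -1.02 ± 0.35 (adjusted p = 0.0653). Hnrnpd (AUF1), which binds AU-rich elements, had 129, 145 and 210.2 CPM in the N1ICD libraries, 183, 171 and 162 in the S100b-cell libraries, 235, 206 and 215 in the MYC/Otx2 libraries and 93.5 and 106 in the MYC/Gfi1 libraries. Both MYC/Gfi1 libraries were below all others, and the N1ICD libraries reached the MYC/Otx2 range. It rose in MYC/Otx2 over MYC/Gfi1 by 1.14 ± 0.24 (log2, SE; adjusted p = 0.0317), a call lost without any 1 of S100b-cell libraries 2 and 3, MYC/Otx2 libraries 1, 2 and 3 and MYC/Gfi1 library 2 (adjusted p = 0.0523 to 0.0931). Against MYC/Gfi1 the N1ICD value was 0.70 ± 0.23 (adjusted p = 0.0783) and the S100b-cell value 0.79 ± 0.24 (adjusted p = 0.0787).

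Hnrnpr, an RNA-binding protein known for its part in axons, had 205, 165 and 148 CPM in the N1ICD libraries, 183, 146 and 137 in the S100b-cell libraries, 133, 137 and 161 in the MYC/Otx2 libraries and 108 and 63.2 in the MYC/Gfi1 libraries. Both MYC/Gfi1 libraries were the lowest. It rose in the N1ICD tumours over MYC/Gfi1 by 1.01 ± 0.28 (log2, SE; edgeR, adjusted p = 0.0441), and the call was lost without any 1 of N1ICD libraries 1, 2 and 3, S100b-cell libraries 1, 2 and 3, MYC/Otx2 libraries 1, 2 and 3 and MYC/Gfi1 library 2 (adjusted p = 0.0617 to 0.187), and held in 3 of the 19 alternatives. Hnrnph2, a G-run binder at low level, had 5.14, 6.97 and 6.49 CPM in the N1ICD libraries, 4.46, 4.91 and 5.16 in the S100b-cell libraries, 1.84, 2.62 and 1.85 in the MYC/Otx2 libraries and 5.13 and 2.61 in the MYC/Gfi1 libraries. All MYC/Otx2 libraries were below the N1ICD and S100b-cell libraries. It rose in the N1ICD tumours over MYC/Otx2 by 1.56 ± 0.48 (log2, SE; adjusted p = 0.0421), a call lost without any 1 of N1ICD libraries 1, 2 and 3, S100b-cell libraries 1, 2 and 3 and MYC/Otx2 libraries 1, 2 and 3 (adjusted p = 0.0508 to 0.114). Its log2 fold change in the S100b-cell tumours was 1.20 ± 0.46 (adjusted p = 0.0959). The splice-site repressors Hnrnpa1 and Hnrnpa2b1 passed no test. Hnrnpa1 had 22.3, 45.7 and 57.2 CPM in the N1ICD libraries, 36.0, 31.8 and 29.0 in the S100b-cell libraries, 33.8, 35.9 and 43.6 in the MYC/Otx2 libraries and 21.7 and 15.3 in the MYC/Gfi1 libraries. Both MYC/Gfi1 libraries were below all others. Its log2 fold change over MYC/Gfi1 was 1.18 ± 0.39 in the N1ICD tumours (adjusted p = 0.0758), and against MYC/Otx2 it was 0.15 ± 0.34 (adjusted p = 0.784). Hnrnpa2b1 had 307, 476 and 456 CPM in the N1ICD libraries, 561, 508 and 412 in the S100b-cell libraries, 339, 486 and 479 in the MYC/Otx2 libraries and 423 and 107 in the MYC/Gfi1 libraries. Apart from MYC/Gfi1 library 2 the models overlapped, and the fold change against MYC/Otx2 was -0.07 ± 0.41 in the N1ICD and 0.18 ± 0.41 in the S100b-cell tumours (adjusted p = 0.92 and 0.787). Hnrnph1 behaved likewise, with 53.6, 88.2 and 72.2 CPM in the N1ICD libraries, 63.5, 68.8 and 59.4 in the S100b-cell libraries, 65.7, 63.5 and 66.8 in the MYC/Otx2 libraries and 65.7 and 23.1 in the MYC/Gfi1 libraries. The low value was again that of MYC/Gfi1 library 2. The remaining 7 hnRNP genes (Hnrnpa3, Hnrnpab, Hnrnpf, Hnrnph3, Hnrnpk, Hnrnpul1 and Hnrnpul2) were not called in any comparison, though Hnrnpab, Hnrnpk and Hnrnpul2 were higher in every MYC/Otx2 library than in any other library.

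**Figure D3:**
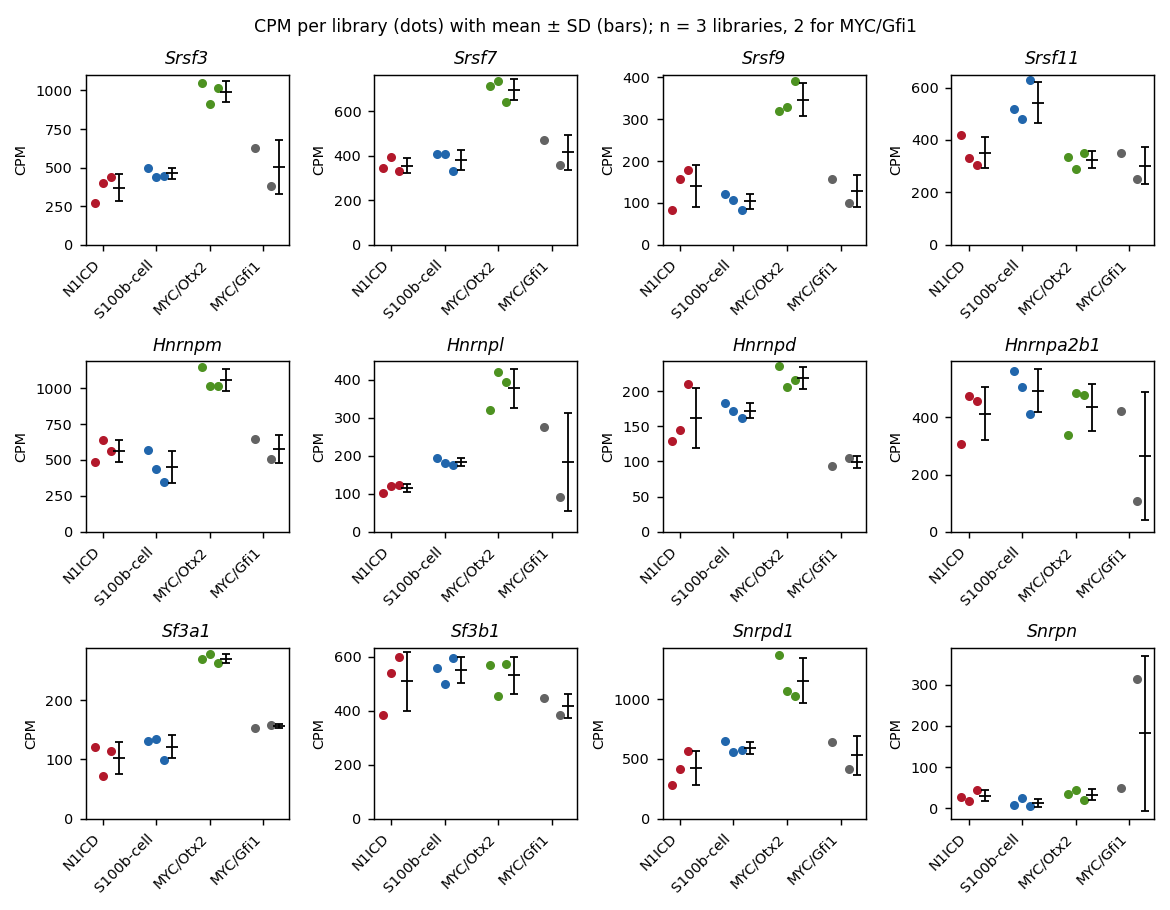
CPM per library (dots) of 12 splicing factor genes in the 4 models, with the mean and SD beside the dots; n = 3 libraries per model and 2 for MYC/Gfi1. In Srsf3, Srsf7, Srsf9, Hnrnpm, Hnrnpl, Sf3a1 and Snrpd1 all 3 MYC/Otx2 dots lie above all others, Srsf11 is highest in the S100b-cell libraries, Hnrnpa2b1 and Sf3b1 overlap among the N1ICD, S100b-cell and MYC/Otx2 models, and Snrpn is high in MYC/Gfi1 library 2.

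In the U2 particle, the SF3A genes Sf3a1 and Sf3a2 and the SF3B gene Sf3b4 fell in the N1ICD tumours against MYC/Otx2, whereas the branch-point subunit Sf3b1 did not pass any test. Sf3a1 had 122, 72.2 and 114 CPM in the N1ICD libraries, 131, 135 and 99.5 in the S100b-cell libraries, 271, 278 and 263 in the MYC/Otx2 libraries and 154 and 159 in the MYC/Gfi1 libraries. The MYC/Otx2 libraries lay within 263 to 278 CPM, above all others, and the MYC/Gfi1 libraries came next. It fell by 1.40 ± 0.23 (log2, SE) in the N1ICD tumours, the smallest adjusted p of the 49 genes in that comparison (edgeR, 0.00359), and by 1.15 ± 0.22 in the S100b-cell tumours (adjusted p = 0.00916). Both calls held in all 19 alternatives. Sf3a2 had 9.86, 12.9 and 23.9 CPM in the N1ICD libraries, 19.2, 18.7 and 17.5 in the S100b-cell libraries, 47.6, 31.3 and 43.7 in the MYC/Otx2 libraries and 28.1 and 30.6 in the MYC/Gfi1 libraries. Both MYC/Gfi1 libraries lay above all N1ICD and S100b-cell libraries. It fell by 1.39 ± 0.34 (log2, SE; adjusted p = 0.0198) in the N1ICD and by 1.14 ± 0.34 (adjusted p = 0.0413) in the S100b-cell tumours. The N1ICD call was lost without any 1 of N1ICD library 2 and MYC/Otx2 libraries 1 and 3 (adjusted p = 0.0601 to 0.0665), and the S100b-cell call without any 1 of S100b-cell libraries 1, 2 and 3 and MYC/Otx2 libraries 1, 2 and 3 (adjusted p = 0.0606 to 0.122). Sf3a3, the remaining SF3A gene, averaged 40.6 CPM in the N1ICD and 62.3 CPM in the MYC/Otx2 tumours and passed no test (adjusted p = 0.271). Sf3b4, a subunit that contacts RNA upstream of the branch point, had 12.9, 13.2 and 26.0 CPM in the N1ICD libraries, 30.9, 25.6 and 16.4 in the S100b-cell libraries, 43.2, 56.2 and 67.3 in the MYC/Otx2 libraries and 37.5 and 13.8 in the MYC/Gfi1 libraries. No other library reached those of MYC/Otx2. It fell by 1.68 ± 0.45 (log2, SE; adjusted p = 0.0265) in the N1ICD tumours, a call lost without any 1 of N1ICD libraries 1 and 2 and MYC/Otx2 libraries 2 and 3 (adjusted p = 0.0644 to 0.0824), and its S100b-cell value was -1.19 ± 0.44 (adjusted p = 0.0817).

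Sf3b1, which clamps the branch-point helix, had 385, 538 and 600.1 CPM in the N1ICD libraries, 557, 498 and 596 in the S100b-cell libraries, 567, 452 and 572 in the MYC/Otx2 libraries and 447 and 384 in the MYC/Gfi1 libraries. The models overlapped except that the S100b-cell and MYC/Otx2 libraries were above both MYC/Gfi1 libraries. Its log2 fold change against MYC/Otx2 was -0.06 ± 0.21 (SE) in the N1ICD and 0.05 ± 0.21 in the S100b-cell tumours (edgeR, adjusted p = 0.854 and 0.881). Sf3b2 had 448, 439 and 436 CPM in the N1ICD libraries, 517, 497 and 434 in the S100b-cell libraries, 645, 477 and 532 in the MYC/Otx2 libraries and 443 and 509 in the MYC/Gfi1 libraries. All N1ICD libraries lay just below the MYC/Otx2 libraries, and the log2 fold change was -0.32 ± 0.17 in the N1ICD tumours against MYC/Otx2 (adjusted p = 0.205). Sf3b3 was above all other libraries in MYC/Otx2, with 47.2, 106 and 130.2 CPM in the N1ICD libraries, 145, 123 and 118 in the S100b-cell libraries, 185, 149 and 186 in the MYC/Otx2 libraries and 113 and 85.4 in the MYC/Gfi1 libraries. N1ICD library 1 was the lowest. It did not pass the test in the N1ICD tumours, at -0.87 ± 0.32 (adjusted p = 0.0788). Sf3b5, a small subunit, had 13.7, 25.4 and 49.9 CPM in the N1ICD libraries, 60.3, 36.7 and 38.2 in the S100b-cell libraries, 14.8, 19.8 and 24.7 in the MYC/Otx2 libraries and 26.7 and 4.21 in the MYC/Gfi1 libraries. All S100b-cell libraries lay above the MYC/Otx2 libraries, with a log2 fold change of 1.19 ± 0.63 (adjusted p = 0.207).

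Among the snRNP genes, the Sm genes Snrpb, Snrpd1 and Snrpd3 fell in the N1ICD and in the S100b-cell tumours against MYC/Otx2, and Snrpg fell in the N1ICD tumours. Snrpd1 had 285, 416 and 568 CPM in the N1ICD libraries, 648, 554 and 577 in the S100b-cell libraries, 1374, 1072 and 1028 in the MYC/Otx2 libraries and 645 and 415 in the MYC/Gfi1 libraries. Every MYC/Otx2 library lay above every other library. It fell by 1.45 ± 0.28 (log2, SE; edgeR, adjusted p = 0.00692) in the N1ICD and by 0.97 ± 0.27 (adjusted p = 0.0368) in the S100b-cell tumours, where the call was lost without any 1 of S100b-cell libraries 1, 2 and 3 and MYC/Otx2 libraries 1, 2 and 3 (adjusted p = 0.0655 to 0.114). Snrpd3 had 459, 533 and 607 CPM in the N1ICD libraries, 488, 343 and 318 in the S100b-cell libraries, 1054, 834 and 965 in the MYC/Otx2 libraries and 394 and 566 in the MYC/Gfi1 libraries. The MYC/Otx2 libraries were above all others, and the N1ICD and S100b-cell libraries overlapped. It fell by 0.84 ± 0.23 (log2, SE; adjusted p = 0.0294) in the N1ICD and by 1.31 ± 0.23 (adjusted p = 0.00648) in the S100b-cell tumours. The N1ICD call was lost without any 1 of N1ICD libraries 1 and 2 and MYC/Otx2 libraries 1, 2 and 3 (adjusted p = 0.0506 to 0.0912). The N1ICD and S100b-cell tumours themselves gave 0.48 ± 0.23 (adjusted p = 0.295). Snrpb, which encodes SmB, had 63.4, 96.2 and 121 CPM in the N1ICD libraries, 118, 132 and 112 in the S100b-cell libraries, 243, 202 and 230.0 in the MYC/Otx2 libraries and 142 and 93.2 in the MYC/Gfi1 libraries. Again all MYC/Otx2 libraries were the highest. It fell by 1.26 ± 0.26 (log2, SE; adjusted p = 0.00961) in the N1ICD and by 0.89 ± 0.26 (adjusted p = 0.0392) in the S100b-cell tumours, and the S100b-cell call was lost without any 1 of N1ICD library 2, S100b-cell libraries 1, 2 and 3 and MYC/Otx2 libraries 1, 2 and 3 (adjusted p = 0.0503 to 0.123). Snrpg had 95.2, 91.0 and 166 CPM in the N1ICD libraries, 190.2, 158 and 151 in the S100b-cell libraries, 290.2, 216 and 216 in the MYC/Otx2 libraries and 180.2 and 82.8 in the MYC/Gfi1 libraries. The MYC/Otx2 libraries were above all others. In the N1ICD tumours it fell by 1.04 ± 0.33 (log2, SE; adjusted p = 0.0471), a call lost without any 1 of N1ICD libraries 1 and 2, S100b-cell libraries 1, 2 and 3 and MYC/Otx2 libraries 1, 2 and 3 (adjusted p = 0.0611 to 0.141).

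Other Sm genes did not pass the test against MYC/Otx2. Snrpe had 97.3, 157 and 284 CPM in the N1ICD libraries, 189, 189 and 170.0 in the S100b-cell libraries, 279, 215 and 273 in the MYC/Otx2 libraries and 225 and 79.9 in the MYC/Gfi1 libraries. N1ICD library 3 reached the highest values and MYC/Gfi1 library 2 was the lowest, and the log2 fold change in the N1ICD tumours was -0.51 ± 0.42 (SE; edgeR, adjusted p = 0.401). Snrpd2 averaged 104 CPM in the N1ICD, 159.7 in the S100b-cell, 155 in the MYC/Otx2 and 70.3 in the MYC/Gfi1 tumours, with no call (lowest adjusted p = 0.0745, S100b-cell against MYC/Gfi1). Snrpf had 23 counts in the N1ICD, 119 in the S100b-cell, 20 in the MYC/Otx2 and 9 in the MYC/Gfi1 libraries together, with no call. The U1 protein gene Snrpc ran against the family, with 57.9, 63.1 and 62.5 CPM in the N1ICD libraries, 85.5, 58.4 and 41.2 in the S100b-cell libraries, 42.0, 27.0 and 31.4 in the MYC/Otx2 libraries and 19.5 and 29.0 in the MYC/Gfi1 libraries. All N1ICD libraries were above all constitutive ones. It rose in the N1ICD tumours over MYC/Gfi1 by 1.33 ± 0.36 (log2, SE; adjusted p = 0.0398), a call lost without any 1 of N1ICD libraries 1, 2 and 3, S100b-cell library 2, MYC/Otx2 libraries 2 and 3 and MYC/Gfi1 libraries 1 and 2 (adjusted p = 0.0511 to 0.129). Over MYC/Otx2 the values were 0.87 ± 0.31 in the N1ICD (adjusted p = 0.0677) and 0.88 ± 0.31 in the S100b-cell tumours (adjusted p = 0.0701). The 3′ end of Snrpc matches 3 annotated pseudogenes, so its level is uncertain. Snrpb2, which encodes a protein of the U2 particle, had 279.9, 506 and 788 CPM in the N1ICD libraries, 731, 701 and 645 in the S100b-cell libraries, 766, 843 and 857 in the MYC/Otx2 libraries and 779 and 271 in the MYC/Gfi1 libraries. N1ICD library 1 and MYC/Gfi1 library 2 were far below the rest, and it passed no test (adjusted p = 0.272 for N1ICD against MYC/Otx2). Snrpa, of the U1 particle, and Snrpa1, of the U2 particle, were both higher in every MYC/Otx2 library than in any other library, without a call.

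Snrpn, an imprinted gene that encodes SmN, the Sm protein of neurons, had 27.0, 18.5 and 44.6 CPM in the N1ICD libraries, 9.25, 24.1 and 5.86 in the S100b-cell libraries, 34.2, 45.3 and 20.8 in the MYC/Otx2 libraries and 48.96 and 315 in the MYC/Gfi1 libraries. MYC/Gfi1 library 2 was far above every other library. In the S100b-cell tumours, set against MYC/Gfi1, Snrpn fell by 3.79 ± 0.80 (log2, SE; edgeR, adjusted p = 0.0339); in the N1ICD tumours the value was -2.60 ± 0.78 (adjusted p = 0.0582). The S100b-cell call was lost without any 1 of S100b-cell libraries 1, 2 and 3, MYC/Otx2 libraries 1, 2 and 3 and MYC/Gfi1 library 2 (adjusted p = 0.0519 to 0.239). Without MYC/Gfi1 library 2 the S100b-cell log2 fold change was -1.89 (edgeR, adjusted p = 0.239). Neuron markers were also highest in MYC/Gfi1 library 2. Summed over 7 genes (Syp, Syt1, Snap25, Stmn2, Camk2b, Map2, Nefl) they reached 80.7 to 181 CPM in the N1ICD, 99.6 to 459 in the S100b-cell, 167 to 473 in the MYC/Otx2 and 583 and 2760.1 CPM in the MYC/Gfi1 libraries, and none was at 0 throughout a model. Against MYC/Gfi1, 2 of the 7 were called lower in the S100b-cell tumours (Syp, Camk2b). Within the N1ICD libraries the marker sums were 116, 181 and 80.7 CPM in order, which ran opposite to Snrpn. They were 99.6, 459 and 156 CPM in the S100b-cell and 167, 473 and 284 CPM in the MYC/Otx2 libraries. In each of these models library 2 was the highest for the markers and for Snrpn. The part of these markers in the Snrpn level was not tested. A same-strand gene model, Gm38393, overlaps the 3′ end of Snrpn, so its reads could be split.

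**Figure D4:**
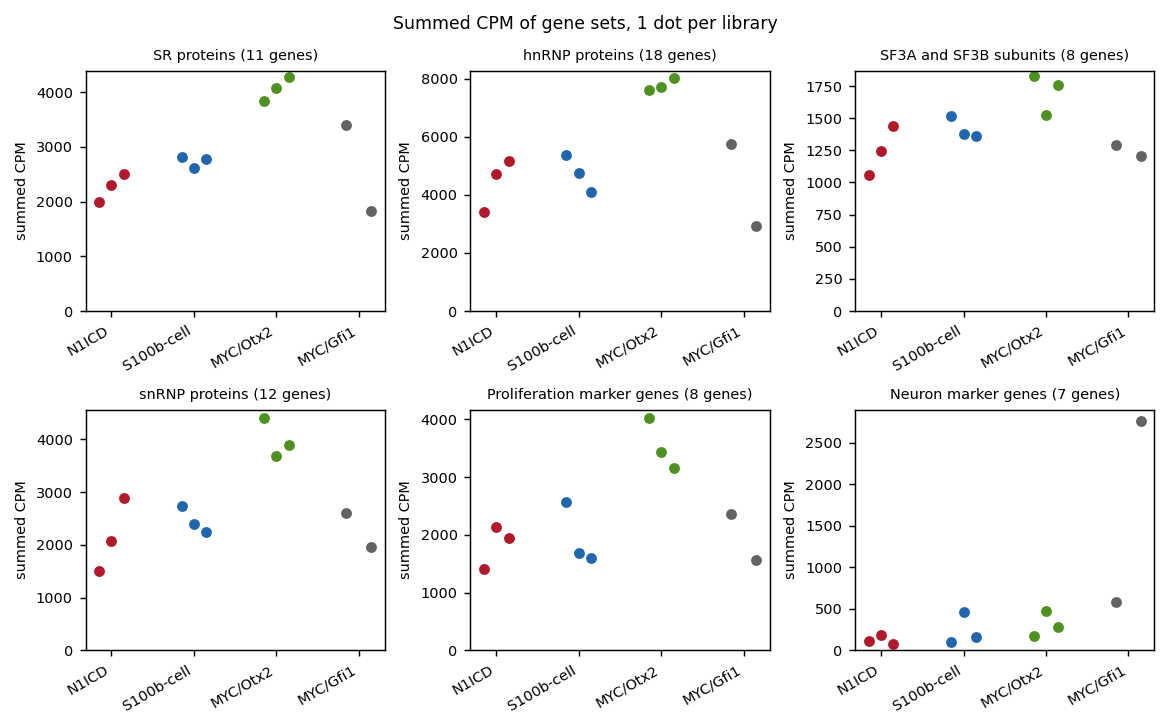
Summed CPM (vertical axis, from 0) of the 4 splicing factor families and of the proliferation and neuron marker lists in each library (dots), by model. The 3 MYC/Otx2 libraries are the highest for each family and for proliferation markers. For the SF3 family the margin is slight, with 1521 CPM in MYC/Otx2 library 2 and 1520 CPM in S100b-cell library 1. Sf3b1 and Sf3b2, which were not called, hold 35.8% and 34.4% of the SF3 sum. MYC/Gfi1 library 2 is low for the SR and hnRNP families and stands apart for neuron markers at 2760.1 CPM.

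The wider splicing machinery was read from lists of genes outside the 4 families. Of 67 other core spliceosome genes, 15 fell and 5 rose in the N1ICD tumours against MYC/Otx2, where 9.76% of all genes fell and 12% rose. In the S100b-cell tumours 10 fell and 5 rose, against 7.89% and 10% of all genes. The medians were -0.17 and -0.01, against 0.14 and 0.17 over all genes. The U2AF genes, whose products recognise the 3′ splice site, were among the falls. U2af1 had 98.6, 165 and 234 CPM in the N1ICD libraries, 527, 437 and 421 in the S100b-cell libraries, 912, 807 and 939 in the MYC/Otx2 libraries and 473 and 325 in the MYC/Gfi1 libraries. The N1ICD libraries were lowest and the MYC/Otx2 libraries highest. It fell by 2.42 ± 0.31 (log2, SE; edgeR, adjusted p = 0.00128) in the N1ICD and by 0.94 ± 0.29 (adjusted p = 0.0498) in the S100b-cell tumours, and it was the core spliceosome gene called between the N1ICD and S100b-cell tumours (-1.48 ± 0.30, adjusted p = 0.0459). U2af2 fell by 2.06 ± 0.20 and 1.42 ± 0.20 (adjusted p = 5.45e-04 and 0.00226) in the N1ICD and S100b-cell tumours. Of the minor spliceosome, 8 genes were tested, and 1 rose and 2 fell in the N1ICD tumours (12% and 9.76% of all genes). Rnpc3 rose by 2.01 ± 0.25 while Snrnp25 fell by 2.55 ± 0.29 and Pdcd7 by 2.07 ± 0.29 (edgeR, adjusted p = 0.00121, 9.13e-04 and 0.00199). In the S100b-cell tumours 2 rose (Rnpc3, Zcrb1) and 2 fell (Snrnp25, Pdcd7), against 10% and 7.89% of all genes.

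Of 17 genes that assemble snRNPs, 4 fell (Wdr77, Phax, Coprs, Clns1a) and 1 rose (Coil) in the N1ICD tumours against MYC/Otx2. Over all genes 9.76% fell and 12% rose. In the S100b-cell tumours 3 fell and 1 rose, against 7.89% and 10% of all genes. Wdr77 and Clns1a encode partners of the methyltransferase that modifies Sm proteins, and Coil encodes coilin of Cajal bodies. Of 21 genes of SR-related proteins and SR kinases, 6 rose and 1 fell in the N1ICD tumours against MYC/Otx2 (12% and 9.76% of all genes), and 3 rose and 2 fell in the S100b-cell tumours (10% and 7.89% of all genes). The kinase gene Prpf4b had 479, 462 and 349 CPM in the N1ICD libraries, 346, 302 and 323 in the S100b-cell libraries, 175, 153 and 139.8 in the MYC/Otx2 libraries and 94.8 and 138 in the MYC/Gfi1 libraries. The N1ICD and S100b-cell libraries were above all constitutive ones. It rose by 1.46 ± 0.21 (log2, SE; edgeR, adjusted p = 0.00208) in the N1ICD and by 1.05 ± 0.21 (adjusted p = 0.00962) in the S100b-cell tumours. Srrm2 and Son, scaffolds of nuclear speckles, rose in the N1ICD tumours by 1.34 ± 0.24 and 0.80 ± 0.16 (adjusted p = 0.00564 and 0.0082). Tra2a, an SR-like activator, fell by 0.98 ± 0.16 in the N1ICD tumours (adjusted p = 0.00345). Of 31 regulators listed as tissue-restricted, 10 fell and 3 rose in the N1ICD tumours against MYC/Otx2 (9.76% and 12% of all genes). In the S100b-cell tumours 5 fell and 2 rose (7.89% and 10% of all genes). The list also holds broadly expressed regulators such as Elavl1 and Celf1, which fell in both comparisons. Against MYC/Gfi1, 9 fell in the N1ICD tumours, where 6.05% of all genes fell. Rbfox3, 1 of the 9, is also in the granule neuron marker list, and 5 of the 8 granule neuron and 3 of the 7 neuron markers were called lower in the same comparison. MYC/Gfi1 library 2 was far above library 1 in Rbfox3 (527 against 57.6 CPM) and Nova1 (198 against 35.8 CPM), both among the 9. The part of neurons in these falls was not tested. Ptbp2, the neural polypyrimidine tract protein, fell by 1.89 ± 0.31 and 2.19 ± 0.31 against MYC/Otx2 (adjusted p = 0.00358 and 0.00235). Mbnl2 rose by 2.26 ± 0.44 in the N1ICD tumours (adjusted p = 0.00737). Between MYC/Otx2 and MYC/Gfi1 these 5 lists gave 5 rises and 2 falls, where 2.43% of all genes rose and 3.03% fell. They were Prpf4, Snrnp25, Prmt5, Celf1 and Khdrbs3 higher and Mbnl2 and Srrm3 lower in MYC/Otx2.

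**Figure D5:**
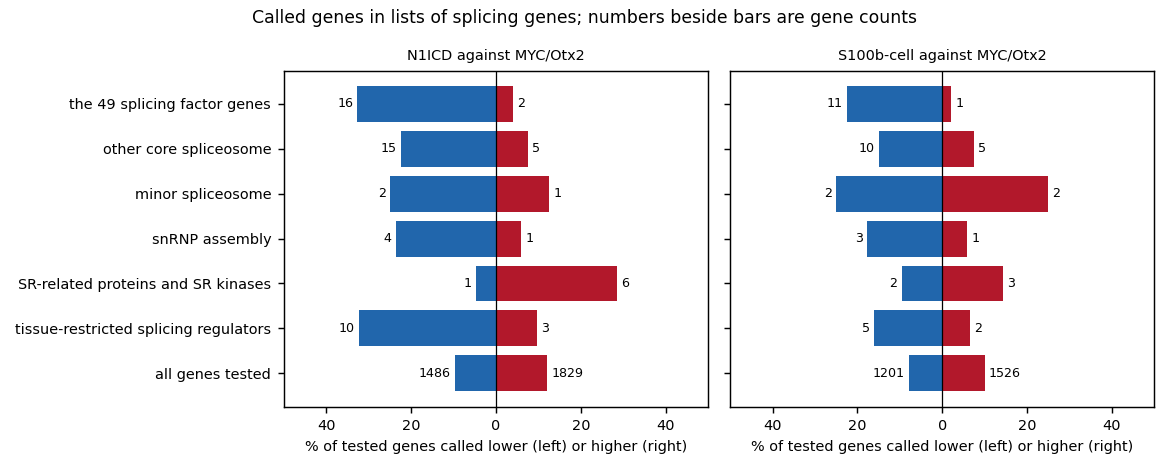
Percent of tested genes called lower (bars to the left) or higher (bars to the right) in the N1ICD and the S100b-cell tumours against MYC/Otx2, for the 49 splicing factor genes, 5 other lists of splicing genes and all 15228 genes; numbers beside bars are gene counts. The 49 genes lean left, with 16 lower and 2 higher in the N1ICD tumours, and the SR-related and kinase list leans right, with 6 higher and 1 lower.

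Reads at 3′ ends could be shared for some members. The last 500 bases of the transcript matched annotated pseudogenes at 95% identity or more over at least 100 bases for Snrpa (4 pseudogenes), Snrpc (3), Snrpd1 (1), Snrpe (1) and Sf3b4 (1). A same-strand gene overlaps the 3′ end of Hnrnpul2 and Snrpn, and a gene on the other strand overlaps that of Hnrnpab, Hnrnph3, Snrpf, Srsf2 and Srsf4. The labels do not say how the counting treated such reads, so the levels of these genes are uncertain.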

How the data were processed

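The 11 QuantSeq 3′ tag libraries of mouse tumours, in 4 groups, were analysed from the deposited table of raw counts per gene. Reads were aligned with STAR 2.4.1d to mm10 and counted with HTSeq 0.6.1, per the submitters' processing notes; the labels say neither whether molecular identifiers were collapsed nor which strand setting was used. The authors' counts were not normalized. The counts were fitted with edgeR 4.0.16 (R 4.3.3, limma 3.58.1): genes with low counts were removed with filterByExpr, which left 15228 of 38406 genes, libraries were scaled by the TMM method, and 1 robust quasi-likelihood model was fitted over the 4 groups. The 6 pairwise comparisons and a test of any difference were made, with Benjamini-Hochberg adjustment over all 15228 genes and calls at an adjusted p under 0.05. CPM values were computed on TMM-scaled totals. Each SE is the log2 fold change divided by the square root of its F value. The common biological coefficient of variation was 0.562.

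Counts from 3′ tags limit precision by depth, and intervals cover counting error only.

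Alternatives were other scaling factors, DESeq2 1.42.0, limma-voom, no filter, mitochondrial genes left out, the replicate number as a block, only the groups compared, and each library left out. Members and gene lists were chosen with earlier results of these data known. Named genes were Srsf1, Hnrnpa1, Hnrnpa2b1, Sf3b1 and Snrpn; in each family up to 5 with the smallest p of any difference (mean of at least 10 CPM) and up to 2 with the largest (mean of at least 50 CPM); and up to 4 called per family or list, comparison and direction. Further members are named where a value completes their family. Promoters came from RefSeq on GRCm38.p6, matched by symbol, and gene positions and pseudogenes from GENCODE on GRCm38.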

Additional observations from a re-analysis of the deposited data

How the results depend on the processing

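Each of the 35 calls of a splicing factor gene kept its direction in all 664 recomputed values, so the alternatives moved calls across the threshold and not signs. With single libraries left out, the members called were 9 to 22 for N1ICD against MYC/Otx2, 4 to 18 for S100b-cell against MYC/Otx2, 0 to 7 for N1ICD against MYC/Gfi1, 0 to 10 for S100b-cell against MYC/Gfi1, 0 to 20 for MYC/Otx2 against MYC/Gfi1, 0 to 0 for N1ICD against S100b-cell and 8 to 29 for any difference. Leaving out a MYC/Gfi1 library leaves 1 in that group, which is then assumed to vary like the others. DESeq2 called 7 members for N1ICD against MYC/Gfi1, 5 for S100b-cell against MYC/Gfi1, 19 for S100b-cell against MYC/Otx2 and 15 for MYC/Otx2 against MYC/Gfi1. Limma-voom called 0 for N1ICD against MYC/Gfi1, 5 for S100b-cell against MYC/Gfi1 and 11 for MYC/Otx2 against MYC/Gfi1. Upper-quartile factors gave 1 for N1ICD against MYC/Gfi1 and 2 for S100b-cell against MYC/Gfi1, with 1 higher and 1 lower. Without the filter both of these were 0, and without mitochondrial genes N1ICD against MYC/Gfi1 gave 1. Fits on only the groups compared gave 22 for S100b-cell against MYC/Otx2 and 0 in each comparison with MYC/Gfi1. With the replicate block, 7 were called for S100b-cell against MYC/Otx2 and 12 for N1ICD against MYC/Otx2. The block gave 0 in each comparison with MYC/Gfi1 and 8 for any difference. Same-numbered libraries correlated, in their deviations from the means of their models, between -0.164 and 0.171. With so few libraries per model, these correlations cannot show whether same-numbered libraries share more than a number. Over all genes, calls ranged over the alternatives from 1654 to 4653 (3315 as reported) for N1ICD against MYC/Otx2, 1192 to 4622 (2727) for S100b-cell against MYC/Otx2, 15 to 3369 (1754) for N1ICD against MYC/Gfi1, 0 to 2306 (663) for S100b-cell against MYC/Gfi1, 65 to 2695 (832) for MYC/Otx2 against MYC/Gfi1, 9 to 1360 (185) for N1ICD against S100b-cell and 2298 to 7095 (4320) for any difference. The causes were not tested. The N1ICD libraries were the shallowest, which limits Srsf4, Srsf12 and Snrpf most.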

Other observations

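Related hnRNP genes are listed under older symbols. Hnrpdl, the older symbol of an hnRNP D-like gene, had 441, 676 and 663 CPM in the N1ICD libraries, 647, 487 and 673 in the S100b-cell libraries, 1256, 938 and 1032 in the MYC/Otx2 libraries and 534 and 743 in the MYC/Gfi1 libraries. Against MYC/Otx2 it fell by 0.86 ± 0.24 (log2, SE) in the N1ICD and by 0.84 ± 0.24 in the S100b-cell tumours (edgeR, adjusted p = 0.0304 and 0.0379). Hnrpll, the older symbol of an hnRNP L-like gene, had log2 fold changes against MYC/Otx2 of -0.52 ± 0.29 in the N1ICD and -0.66 ± 0.29 in the S100b-cell tumours and passed neither test (adjusted p = 0.223 and 0.138).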
